A study of Homo sapiens with 2 samples.

Results

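The mRNAs of 10 immediate early genes were followed in RNA recovered by immunoprecipitation from 293T cells, a human embryonic kidney line transformed with viral genes, including the SV40 large T antigen. The genes were FOS, FOSB, FOSL1, JUN, JUNB, JUND, EGR1, IER2, MYC and ATF3. They were chosen by name, with earlier results of these data known. They were matched to the array's annotation, keeping probe sets that carry 1 gene symbol. This gave 20 probe sets, of 54675 on the array, for these 10 genes, of 19775 genes with such a probe set. One sample was RNA that came down with Ago2, an Argonaute protein that carries microRNAs to mRNAs, from cells given synthetic miR-941. The control sample was RNA precipitated from cells given a scrambled oligonucleotide. Each oligonucleotide was used at 30 nmol/l, and each sample was read on 1 Affymetrix U133 Plus 2.0 array. The control's title and description name Ago2, but its antibody label names nonimmune IgG beads. If that label holds, the effects of oligonucleotide and antibody cannot be told apart.

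Immediate early genes are transcribed within minutes of a stimulus such as serum, growth factors or stress, without new protein synthesis. Kinases of the MAP kinase cascades activate factors already bound at their promoters. Their mRNAs carry destabilising elements, often AU-rich, and most are degraded soon after they are made, so their levels follow recent events in a culture, transfection and handling included. FOS and JUN family proteins pair through leucine zippers to form the transcription factor AP-1. EGR1 is a zinc finger factor, MYC drives growth and proliferation genes together with its partner MAX, ATF3 is a stress-induced relative of the AP-1 proteins, and IER2 is a nuclear protein of the same early response.

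The microRNA that was added is 23 bases long. Its mature sequence, credited to RefSeq, is shown with the seed (bases 2 to 8, the part that pairs with targets) in capitals.
hsa-miR-941: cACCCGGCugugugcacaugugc
The same mature sequence is annotated at 5 gene copies on chromosome 20 (GRCh38.p14), the first at chr20:63919495-63919517 and the last at chr20:63919914-63919936, on the forward strand. Among 2370 mature microRNA names in the table, 1 has this seed. Whether the 10 mRNAs hold matches to the seed was not examined, as no transcript sequences were used here.

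Stimuli act through elements in promoters, and the sequences just upstream of 5 of these genes are shown for reference. RefSeq promoter sequence (GRCh38.p14) was matched for 8 of the 10 genes, the other two being FOSL1 and MYC. The 150 bases just upstream of the annotated start are printed 5′ to 3′ on the gene's strand, with capitals for TGACG on either strand (the core of the cyclic AMP response element, CRE) and for CArG boxes (the serum response factor site).
FOS: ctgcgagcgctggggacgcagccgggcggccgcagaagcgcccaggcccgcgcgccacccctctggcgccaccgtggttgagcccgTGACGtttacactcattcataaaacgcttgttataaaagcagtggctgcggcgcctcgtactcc
FOSB: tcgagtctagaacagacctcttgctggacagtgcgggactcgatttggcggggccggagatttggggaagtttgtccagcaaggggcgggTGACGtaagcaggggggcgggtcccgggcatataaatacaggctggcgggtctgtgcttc
EGR1: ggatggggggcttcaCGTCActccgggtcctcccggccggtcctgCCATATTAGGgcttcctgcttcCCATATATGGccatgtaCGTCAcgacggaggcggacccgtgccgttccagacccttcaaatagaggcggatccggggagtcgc
IER2: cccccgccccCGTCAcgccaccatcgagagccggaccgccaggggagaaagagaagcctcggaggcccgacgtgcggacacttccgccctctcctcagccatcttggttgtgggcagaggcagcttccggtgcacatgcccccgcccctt
JUN: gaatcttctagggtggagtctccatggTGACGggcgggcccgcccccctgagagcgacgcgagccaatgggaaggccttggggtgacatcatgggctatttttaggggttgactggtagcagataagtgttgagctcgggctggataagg
These stretches lie at chr14:75278678-75278827 (forward strand) for FOS, chr19:45467846-45467995 (forward strand) for FOSB, chr5:138465329-138465478 (forward strand) for EGR1, chr19:13150261-13150410 (forward strand) for IER2 and chr1:58784048-58784197 (reverse strand) for JUN.
Within 250 bases upstream of the start, TGACG was present on either strand for 7 of the 8 genes (all but ATF3), and for 21.2% of 35116 promoters in the table. The full CRE, TGACGTCA, which contains that core on both strands, was found in JUND only and in 1.65% of promoters. EGR1 held 2 CArG boxes, a pattern present in 1.16% of promoters. TATAAA was found in FOS, FOSB, JUNB and ATF3 and in 10.7% of promoters. Neither form of the AP-1 site (TGACTCA or TGAGTCA) and neither form of the EGR site (GCGTGGGCG or GCGGGGGCG) was found for any of the 8 genes, against 4.20% and 5.37% of promoters. These are letter matches in a short window and no measure of binding, and sites farther upstream were not searched. The windows of ATF3, JUNB and JUND were searched but are not printed. Any link between these matches and the array differences was not tested. ATF3 had more than a single annotated start, so 9 windows were searched for the 8 genes. The arrays measure precipitated RNA and not transcription.

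The deposited values, 1 per probe set, were taken as log2, and each difference is the value on the miR-941 array minus that on the control array. There was 1 array per group, so no test was run, no value has a replicate error, and each difference compares 2 arrays and not the conditions. Array medians were 0.98 (miR-941) and 0.92 (control). Probe sets whose mean over both arrays was above 0.92 were called detected. Of 10 markers described in the parent line 8 were detected, all but LHX1 and KRT8, where 13150 of 19775 genes were detected. The 8 had summed values of 40.9 on the miR-941 array and 40.9 on the control array. Of 16 markers of other cell types 8 were detected, with summed values of 17.6 and 16.2. Among them the beta globin gene HBB read 7.54 and 6.95 through an _x_at probe set, a class that can match several transcripts, while the other 7 read at most 2.48 on the miR-941 array and 2.72 on the control array. ALB, PTPRC, CD3E, LYZ, COL3A1, DCN, MYH7 and KRT14 were not detected. On the same arrays the 5′ control for actin mRNA read 6.49 and 7.15, a difference of -0.66. Its middle control differed by -0.37, and its 3′ control read 9.81 and 9.85, a difference of -0.04. The controls for GAPDH mRNA differed by -0.19 (5′), -0.07 (middle) and 0.05 (3′). Their part in the values below was not tested. Neither array held input RNA, so more cells with an mRNA, more mRNA per cell and a greater recovered share cannot be told apart.

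Of the 9 early factor genes that were detected, 4 read higher on the miR-941 array by more than the pooled spread between probe sets of one gene. They were FOSB, FOS, EGR1 and IER2. Differences at least that large in the same direction were seen in 0.144%, 4.46%, 6.40% and 9.43% of all detected genes. The share of detected genes higher by more than the spread itself, 0.31, was not counted. It lies between the 9.43% at the IER2 difference and the 22.3% at the smaller JUNB difference. Of the 10 genes, 9 had at least 1 detected probe set, and all but FOSL1 are described below by their brightest one. By that probe set 7 of the 9 read higher and 2 lower, where 46.3% of 13150 detected genes read higher and 42.4% lower. FOSB was the 1 member past 2-fold higher, where 0.228% of detected genes were, and no member was 2-fold lower, where 0.289% of detected genes were. At 1.5-fold the counts were again 1 higher and 0 lower, where 2.94% of detected genes were higher and 2.87% lower. The 9 differences ran from -0.13 for MYC to 1.04 for FOSB. Their median was 0.22, against 0.00 over all detected genes. It was 0.0564 over the 7 genes above the 75th percentile of level, and 0.38 over the 6 genes left without the probe set classes _x_at, _s_at and _a_at. For scale, the differences of probe sets of one gene had a pooled within-gene SD of 0.31, which is no replicate error. It was taken at all levels, over 6106 genes with 2 or more detected probe sets. The SD of the differences over all detected genes was 0.30. JUNB, JUN, ATF3, JUND and MYC differed by less than either SD.

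**Figure D1:**
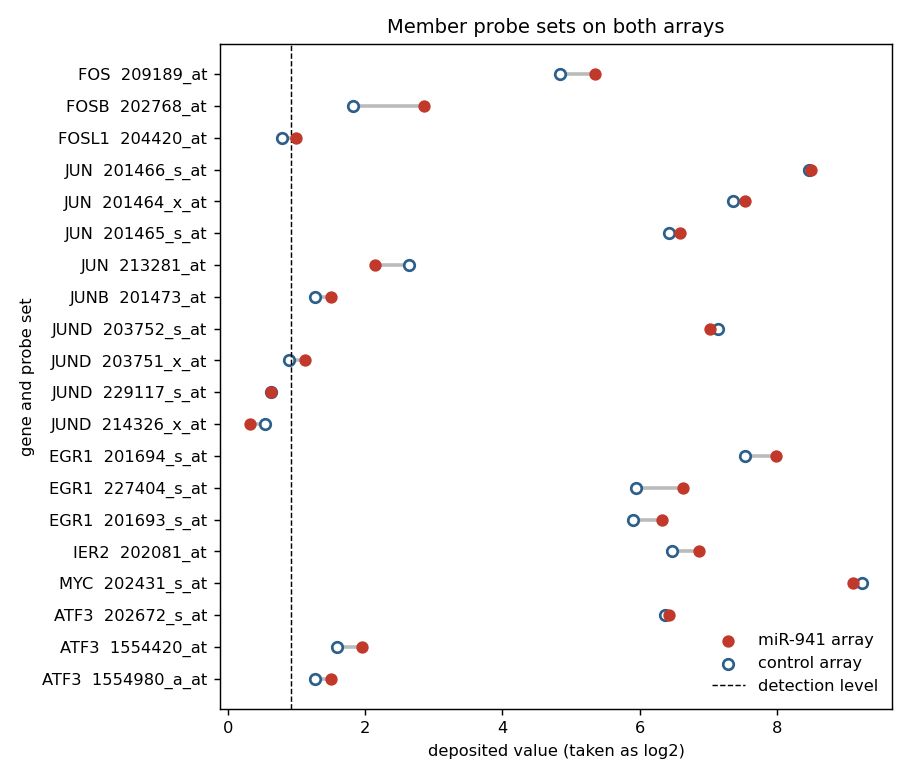
Deposited values (taken as log2) of the 20 probe sets of the 10 genes, with a filled point for the miR-941 array, an open point for the control array and a dashed line at the detection level of 0.92. FOSB has the widest gap, 2.86 against 1.83, and all 3 EGR1 probe sets read higher on the miR-941 array.

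The FOS family gave the largest single difference. FOSB, a partner of JUN proteins in AP-1, had 1 probe set, which read 2.86 on the miR-941 array and 1.83 on the control array, a log2 difference of 1.04 (2.05-fold). It was dim on both arrays. Among 3293 detected probe sets within 0.5 of its mean level, 1.00% were 2-fold or more higher and 1.58% were 2-fold or more lower. The size of the FOSB difference was shared, to within 1e-05, by 14 detected probe sets with 1 symbol, itself included, of which 9 were higher and 5 lower. One of them was the probe set of MAPK10, a JUN kinase gene (2.14 on the miR-941 array and 1.10 on the control array). Differences thus come in repeated steps, and the FOSB difference is one such step. Repeats were not limited to dim probe sets. The gene IGF2BP1 read 5.76 on the miR-941 array and 5.24 on the control array, a size shared by 99 detected probe sets.

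FOS itself was brighter and differed less. Its only probe set read 5.35 on the miR-941 array and 4.84 on the control array, a difference of 0.51 (1.43-fold). A difference at least that large in the same direction was seen in 2.09% of 3059 detected probe sets of like level, meaning within 0.5 of its mean, and in 4.46% of all detected genes. FOSL1, which encodes the FOS relative FRA-1, read 1.00 on the miR-941 array and 0.79 on the control array. Its mean of 0.89 lay just outside the detection level, and that of the dimmest detected JUND probe set, 1.00, just inside it. The FOSL1 difference of 0.21 is a size shared by 3001 probe sets on the array, of which 2426 were not detected.

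**Figure D2:**
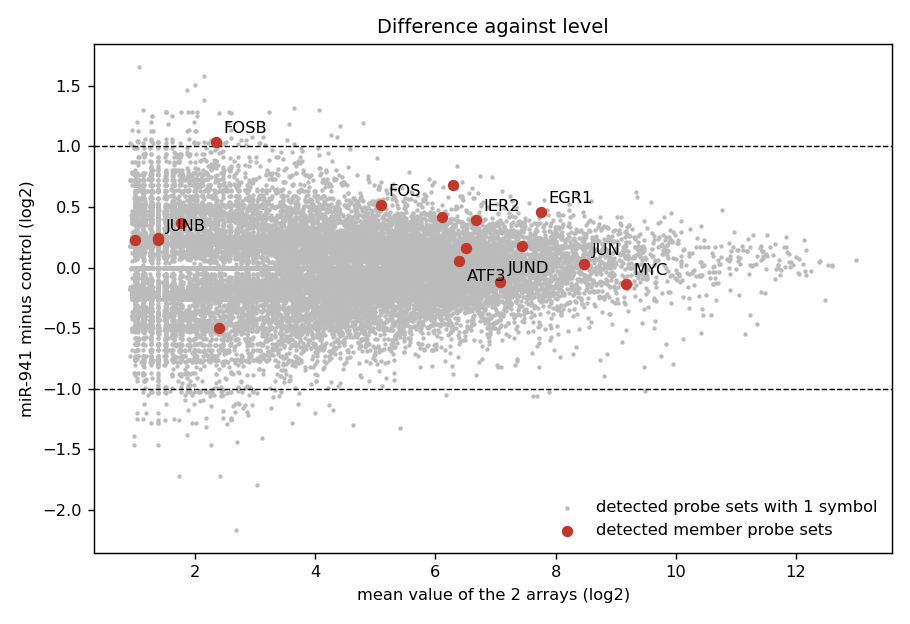
Log2 difference (miR-941 minus control) against the mean value of both arrays for 23317 detected probe sets with 1 symbol (grey) and the 17 detected member probe sets (red, with the brightest of each gene named); dashed lines mark 2-fold. FOSB lies just above the upper line among widely scattered dim probe sets, while EGR1, FOS and IER2 lie on the upper side of the narrower scatter at higher levels.

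EGR1, an early zinc finger transcription factor, had 3 probe sets, all well above the detection level and all higher on the miR-941 array. The brightest read 7.98 on the miR-941 array and 7.53 on the control array. The next read 6.63 on the miR-941 array and 5.95 on the control array, and the dimmest 6.32 and 5.90. The 3 differences were 0.46, 0.68 and 0.42, with a median of 0.46 and a mean of 0.52 ± 0.14 (SD over 3 probe sets, which share 1 hybridisation per array). Differences at least that large in the same direction were seen in 0.892%, 0.242% and 2.44% of the detected probe sets of like level, which numbered 1009, 2476 and 2665. All 3 carry the suffix _s_at, so EGR1 has no value once probe sets that may match several transcripts are left out.

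IER2, whose nuclear protein is made in the same early wave, was close to EGR1. Its only probe set read 6.87 on the miR-941 array and 6.48 on the control array, a difference of 0.39 (1.31-fold). Of 2094 detected probe sets of like level, 2.58% were at least that much higher. FOS, EGR1 and IER2 thus each read between 1.31-fold and 1.43-fold higher by their brightest probe sets. The sizes of these differences were shared by 4, 1 and 1 probe sets on the array, themselves included.

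The JUN family differed little. JUN, the main AP-1 partner of the FOS proteins, had 4 detected probe sets. The 3 bright ones read 8.49, 7.53 and 6.59 on the miR-941 array and 8.46, 7.35 and 6.42 on the control array, differences of 0.03, 0.17 and 0.16. The dim one read 2.14 on the miR-941 array and 2.64 on the control array, a difference of -0.50 in the other direction, and this size was shared by 422 probe sets on the array. JUNB, an AP-1 subunit that often opposes JUN, read 1.498 on the miR-941 array and 1.27 on the control array, near the detection level. Its difference of 0.22 was matched or passed by 30.8% of detected probe sets of like level. JUND, the most constitutive of the JUN proteins, read 7.02 on the miR-941 array and 7.14 on the control array by its brightest probe set (-0.12), and 1.12 and 0.89 by its only other detected one (0.23). Of its remaining pair, not detected, one read 0.62 on both arrays and one 0.33 and 0.54. By their brightest probe sets JUN and JUND thus differed by less than the within-gene spread, in opposite directions.

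MYC and the brightest ATF3 probe set differed by less than the within-gene spread. MYC had 1 probe set, which read 9.10 on the miR-941 array and 9.24 on the control array, a difference of -0.13. Of 322 detected probe sets of like level, 18.3% were at least that much lower. ATF3, a repressor and activator induced by many stresses, had 3 detected probe sets, all higher on the miR-941 array. The brightest read 6.42 on the miR-941 array and 6.37 on the control array (0.06). The next read 1.95 on the miR-941 array and 1.58 on the control array (0.37), and the dimmest 1.51 and 1.27 (0.24). Over the 3 the median was 0.24 and the mean 0.22 ± 0.16 (SD). The sizes of these dim ATF3 differences were shared by 37 and 1213 probe sets on the array, and that of the bright one by 3.

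Agreement between probe sets was mixed. Of the 17 detected probe sets of the 9 genes, 14 were higher with miR-941 and 3 were lower. Among 23317 detected probe sets 44.2% were higher and 43.4% lower. EGR1, JUN and ATF3 each gave 3 of the higher ones, and probe sets of one gene are not separate observations. Among the 3 members with at least 3 detected probe sets, EGR1 and ATF3 had all of them higher and JUN did not, where 8.42% of 2578 such genes had all higher and 10.7% all lower. The SD of the difference over probe sets was 0.14 for EGR1, 0.16 for ATF3 and 0.32 for JUN, against a median of 0.26 over those genes. The pair of JUND probe sets had an SD of 0.25, against a median of 0.22 over the 6106 genes with at least 2. FOS, FOSB, JUNB, IER2 and MYC rest on 1 probe set each, so agreement could not be examined for the 3 genes FOS, FOSB and IER2, whose differences exceeded the spread.

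**Figure D3:**
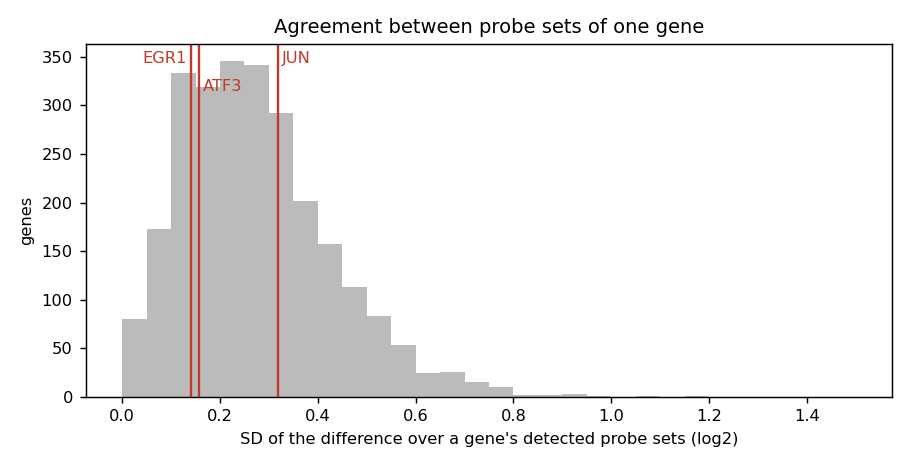
Number of genes by the SD of the log2 difference over their detected probe sets, for 2578 genes with at least 3, with red lines at the members. EGR1 (0.14) and ATF3 (0.16) lie below the median of 0.26 and JUN (0.32) above it.

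Other mRNAs of the early response had a median difference near 0. The lists of related genes were chosen with earlier results of these data known, and they are described by counts and medians alone. Over all detected genes 46.3% were higher, 42.4% lower, 0.228% 2-fold higher and 0.289% 2-fold lower, with a median of 0.00. Of the genes listed, 25 of 29 relatives of the factors, 43 of 44 other early mRNAs, 23 of 31 upstream genes, 14 of 16 MYC partners and 18 of 20 genes of AU-rich mRNAs had a probe set with 1 symbol, and the rest were not analysed here. MIZ1, also listed with the MYC partners, is not a current symbol and was not counted. Among 40 detected genes of 43 other immediate and delayed early mRNAs, 15 read higher, 20 lower and 5 equal, with a median difference of -0.02. GADD45G, a growth arrest and stress gene, was the 1 past 2-fold, at 1.43 on the miR-941 array and 0.41 on the control array (1.03), and it lay below the detection level on the control array. That size of difference was shared by 26 detected probe sets, itself and one of ATF7 included. IER3, an early gene that protects from cell death, read 4.32 and 3.73 (0.59). At the low end the matricellular protein gene CCN1 read 1.66 on the miR-941 array and 2.34 on the control array (-0.68), its other detected probe set being higher, and the stress cytokine GDF15 read 1.01 and 1.77 (-0.76). The phosphatase gene DUSP1, induced with FOS in the textbook response, read 6.35 and 6.40 (-0.05); it was chosen after its value was seen.

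Relatives of the AP-1 and EGR factors had a median slightly below 0. Of 22 detected genes of 25, 9 read higher and 13 lower, with a median of -0.09. The small MAF protein gene MAFF read 2.73 on the miR-941 array and 1.90 on the control array (0.83), with both probe sets higher, and the AP-1 family gene BATF3 read 4.79 and 4.28 (0.51). EGR4 read 0.89 and 1.36 (-0.47), near the detection level, a size shared by 181 detected probe sets. ATF7, a CRE-binding factor, read 1.75 and 2.78 (-1.03), the 1 relative past 2-fold lower, but 1 of its 3 probe sets was higher and their median was -0.15.

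The kinases and factors that switch early genes on lay on both sides of 0. Among 23 detected genes, 10 were higher and 12 lower, 1 was equal, and the median was -0.03. MAPK10, named above for its repeated step, was the 1 gene past 2-fold. MAPK3, which encodes the kinase ERK1, read 4.88 on the miR-941 array and 4.44 on the control array (0.44). The size of the MAPK3 difference was shared by 226 detected probe sets. The low end held a pair of genes whose products bind the FOS and EGR1 promoters. SRF, the factor that binds the CArG box, read 2.60 on the miR-941 array and 3.10 on the control array (-0.50), a size it shares with the dim JUN probe set. Its partner ELK4 read 4.32 and 5.22 (-0.90), with 3 of 4 probe sets lower and a median of -0.24.

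Of MYC's partners and rivals, 14 genes were detected, with 4 higher, 9 lower and 1 equal, where 46.3% of all detected genes were higher and 42.4% lower. None passed 2-fold, and the median was -0.16. MAX, the obligate partner of MYC, read 7.14 on the miR-941 array and 6.84 on the control array (0.29), with 3 of 5 probe sets higher and a median of 0.05. MYCN, a MYC relative, read 1.61 and 1.40 (0.21), a size shared by 453 detected probe sets. ZBTB17, which MYC binds to repress genes, read 2.08 and 2.54 (-0.46), with its probe sets split. FBXW7, the ubiquitin ligase subunit that marks MYC for degradation, read 4.27 on the miR-941 array and 4.79 on the control array (-0.52). Of its 3 probe sets 2 were lower and none higher, and the size of its difference was shared by 126 detected probe sets.

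The list named for proteins of AU-rich mRNAs also holds proteins that bind or degrade other mRNAs. It had 11 of 18 detected genes higher and 7 lower, with a median of 0.04 and none past 2-fold. ZFP36, ZFP36L1 and ZFP36L2 were listed with the other early mRNAs (-0.19, 0.06 and -0.44) and are not in this count. IGF2BP1 and IGF2BP3, which protect bound mRNAs, read 5.76 and 6.76 on the miR-941 array. They read 5.24 and 6.42 on the control array (0.52 and 0.34). The size of the IGF2BP1 difference was shared by 99 detected probe sets. PUM2, a repressor that binds mRNA, read 7.16 on the miR-941 array and 7.37 on the control array (-0.21). CNOT8, a deadenylase, read 5.72 and 5.96 (-0.24).

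**Figure D4:**
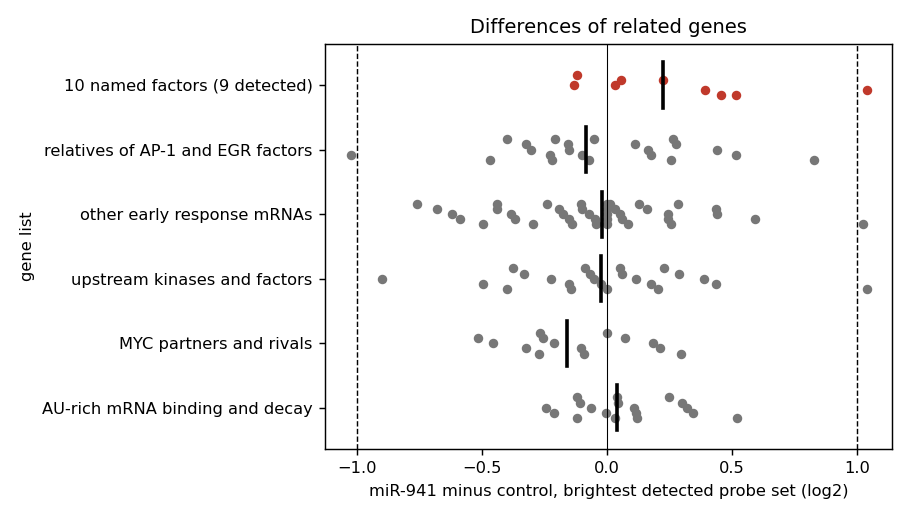
Log2 difference (miR-941 minus control) of the brightest detected probe set of each gene, with 1 point per gene, the 9 detected early factors in red, a bar at each list's median and dashed lines at 2-fold. The median of the early factors is 0.22 (0.0564 over the 7 above the 75th percentile of level and 0.38 over the 6 without _x_at, _s_at and _a_at probe sets), and those of the 5 related lists run from -0.16 (MYC partners and rivals) to 0.04 (proteins of AU-rich mRNAs).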

How the data were processed

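RNA of 2 precipitates, 1 per group, was measured, and groups follow the transfected oligonucleotide in the labels. The deposited values were taken as log2; per the labels the authors quantified them with RMA, and per the submitters' processing notes RMA, affy and MAS5 were used, without versions or roles. Genome build and centring are not given in the sources used here. Values reach 13.7, above the natural logarithm of a 16-bit reading (11.1). With 1 array per group the precision of a difference cannot be estimated. Of 54675 probe sets 41091 had 1 symbol, 1801 several and 11721 none, and 62 were controls; symbols were updated by Entrez identifier through RefSeq GRCh38.p14 (41037 matched).

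The probe set with the highest mean of both arrays stood for its gene. The detection level, 0.92, is the median of the mean of both arrays over probe sets other than controls. Calculations used Python 3.11.15, pandas 2.3.3 and statsmodels 0.14.6 and were tested on simulated differences. All 10 members were named, as were the 2 highest and 2 lowest genes of each related list. Members and lists were chosen with earlier results of these data known. Alternatives changed the probe set summary, the probe set classes, the level filter, the floor, the scaling and the fold counted.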

Additional observations from a re-analysis of the deposited data

How the results depend on the processing

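No paired analysis was possible because there is a single array in each group, and leaving one out ends the comparison. The median difference of the members (0.22 over 9 genes) moved to 0.38 over 6 genes without _x_at, _s_at and _a_at probe sets, where 5 of 6 detected probe sets read higher, and to 0.0564 over 7 genes above the 75th percentile of level, where 9 of 11 read higher. Both settings test fewer genes. The count of members 2-fold higher (1, FOSB) became 0 above the 75th percentile of level, which FOSB does not reach, and 0 at 4-fold, and it stayed 1 under the other alternatives run. No member was 2-fold lower under any alternative run. Of 67 alternative values of single members 4 had the other sign: JUN at -0.03 with the mean over probe sets and at -0.50 without the suffixed classes, and JUND at 0.05 with the mean and with the median over its 2 detected probe sets. FOSB ranged from 1.02 to 1.05, EGR1 from 0.45 to 0.52, FOS from 0.51 to 0.54 and IER2 from 0.39 to 0.40. ATF3, at 0.06 on its brightest probe set, had 0.22 with the mean, 0.24 with the median and 0.37 without the suffixed classes. Dim probe sets limit FOSB, JUNB and FOSL1. Of all probe sets 21.6% held the same value on both arrays, and differences took repeated sizes near the detection level and also at higher levels.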

Other observations

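Repeated sizes of difference were not limited to the members. The 197 detected probe sets with 1 symbol that differed by 2-fold or more held 85 distinct sizes when rounded to 5 decimals, and 2902 of 23317 detected probe sets were equal on both arrays. Of the members' detected probe sets, the dimmer JUND one shared its size of difference with the largest number on the array, 2012 in all.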
